A study of Mus musculus with 4 samples.

Results

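The synaptic vesicle fusion machinery was followed here as a set of 66 genes among the 23420 gene symbols counted. The members were taken by symbol alone and comprised the synaptotagmins (*Syt*), the syntaxins (*Stx*), the *Vamp* genes, *Snap23*, *Snap25*, *Snap29*, *Snap47* and *Snap91*, the complexins (*Cplx*), the *Rab3* GTPases, the *Rims* and *Unc13* genes, the synapsins (*Syn*) and the SV2 genes. The study made cervical motor neurons (MNs) from E14 mouse embryonic stem cells (mESCs) and asked how the loss of the zinc finger protein PATZ1 altered their transcriptome. The comparison was of WT MNs with *Patz1* KO MNs, genotype Patz1 -/-, with 2 RNA-seq libraries in each group. Both genotypes were grown with LIF and 2i inhibitors and were driven to MNs as embryoid bodies with retinoic acid and smoothened agonist. The paper describes biological replicates as separate differentiations and reports several *Patz1* KO lines made by CRISPR/Cas9 in single clones, and which line gave which library is not stated. The samples are titled as ESCs, but their source and cell type are given as MNs, and they were taken as MNs.

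Release of neurotransmitter runs through a small cycle of proteins. A SNARE on the vesicle (VAMP) zippers with SNAREs on the plasma membrane (a syntaxin and a SNAP protein), Munc13 and RIM prepare the vesicle at the active zone, complexin clamps and aids the assembled SNAREs, and synaptotagmin triggers fusion when calcium enters. Many paralogs of these families serve inner membranes or secretion in cells that are not neurons, so the set holds both neuronal genes and genes of general membrane traffic.

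Library totals went from 14769104 to 23881522 counts, and every value below is in CPM (counts scaled to library size, with TMM factors) unless another unit is named. *Patz1* itself fell from 91.5 and 94.3 CPM in the WT libraries to 47.6 and 42.6 CPM in the *Patz1* KO libraries, a log2 fold change of -1.04 (SE 0.095, Benjamini-Hochberg adjusted p = 9.93e-08 in the quasi-likelihood test of edgeR), so its transcripts were still counted in both KO libraries. Fold changes are those of *Patz1* KO over WT throughout, and a gene was called when its adjusted p in this test was below 0.05. MN markers were present in all libraries, and none of the 8 on the list (among them *Mnx1*, *Isl1* and *Chat*) was at 0.

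With TMM scaling more of the fusion genes were higher than lower in *Patz1* KO MNs (25 and 6). Scaling to pan-neuronal markers gave 8 higher and 21 lower, beside 1144 higher and 8642 lower of all 14394 genes tested. On that scale the median log2 fold change was -0.22 for the members and -0.46 for all genes. Of the 66 members, 59 had at least 10 counts in at least 2 libraries and were tested, and 31 of the 59 (52.5%) were called, close to the 47.4% of all 14394 genes tested. The directions were uneven, since 25 members rose (42.4% of those tested, against 24.0% of all genes) and 6 members fell (10.2%, against 23.4% of all genes). The median log2 fold change was 0.24 over the 59 members and 0.00 over all genes tested. The range ran from -2.03 for *Vamp8* to 2.13 for *Syn2*, and the log2 fold change was at least 1 in size for 6 members, namely *Syn2*, *Rims4*, *Cplx1* and *Sv2a* above and *Vamp8* and *Syt16* below. The 2 groups did not overlap in 46 of the 59 members and in 10635 of all 14394 genes.

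The markers of the cell types in these cultures moved as well, and in bulk RNA fewer cells of a type and less RNA per cell cannot be told apart. The 8 pan-neuronal markers summed to 4213 to 4484 CPM in WT and 6126 to 6480.4 CPM in KO, with 5 of 8 higher, log2 fold changes of 0.10 to 1.01 and a median of 0.40. The 8 MN markers summed to 599.7 to 644 CPM in WT and 939 to 1032 CPM in KO, with 7 of 8 higher and a median of 0.74. The 5 markers of cycling cells all fell, from summed levels of 1340.2 to 1437 CPM to 719 to 728 CPM. No marker of these 3 lists was at 0. When the libraries were scaled to the geometric mean of the pan-neuronal markers in place of TMM, a choice made after the data were seen, the median over all genes tested moved to -0.46 and that over the members to -0.22. This scaling shifts all genes by about the same amount, members included. On that scale 1144 of all genes were higher and 8642 lower, and the 8 members that were higher were *Syn2*, *Rims4*, *Cplx1*, *Sv2a*, *Rims3*, *Stx17*, *Syn1* and *Unc13a*.

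**Figure D1:**
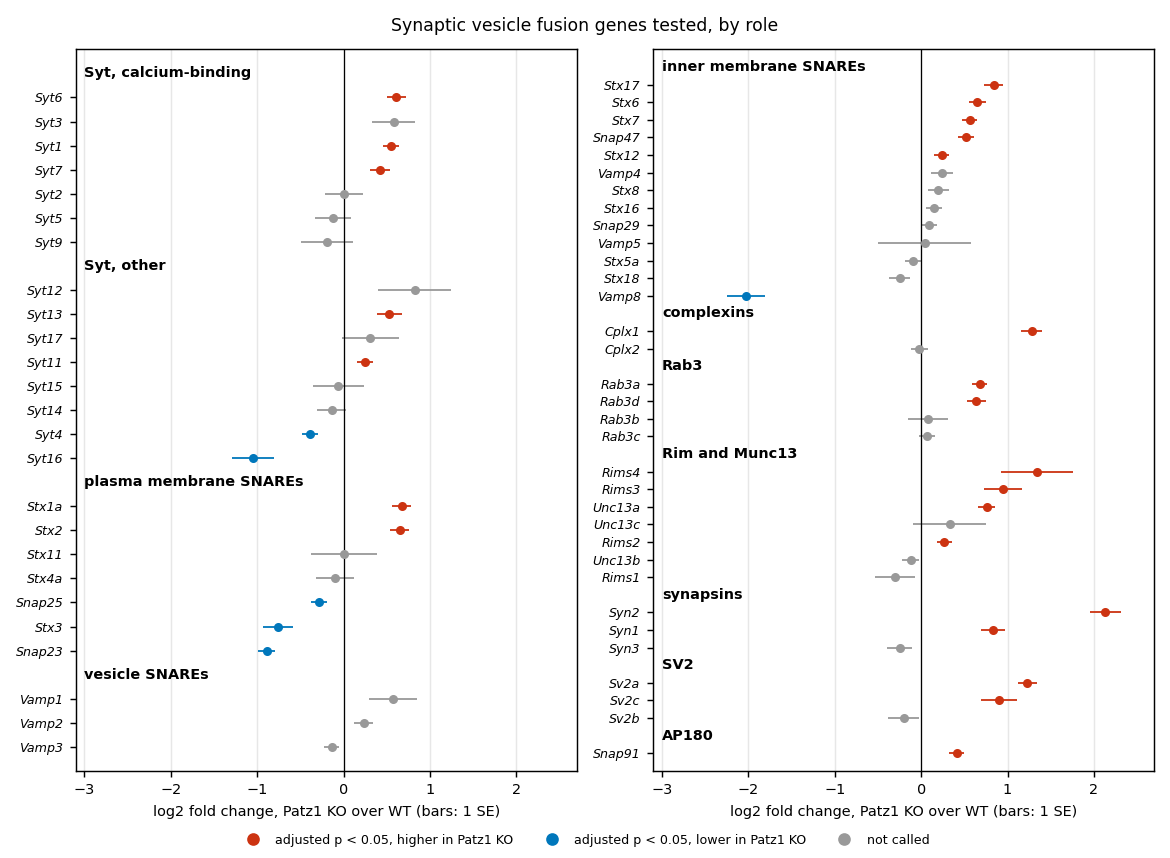
Log2 fold change with TMM scaling (*Patz1* KO over WT, x axis) with 1 SE for 58 of the 59 tested members, grouped by role, with red points higher, blue points lower and grey points not called at an adjusted p below 0.05. The 24 red points include members of all roles except the vesicle SNAREs, and the blue points are *Vamp8*, *Syt16*, *Snap23*, *Stx3*, *Syt4* and *Snap25*.

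Among 19 members taken from textbook knowledge as the neuronal core of exocytosis, 11 rose, 1 (*Snap25*) fell and 7 were not called, with a median log2 fold change of 0.57. The core held *Cplx1*, *Cplx2*, *Rab3a*, *Rab3c*, *Rims1*, *Rims2*, *Snap25*, *Stx1a* and the SV2 genes. It also held *Syn1*, *Syn2*, *Syt1*, *Syt2*, *Unc13a*, *Vamp1*, *Vamp2* and 1 member not reported here by itself. *Syn3*, *Unc13b* and *Syt4*, which did not rise, and *Syt7* and *Rims3*, which rose, were among those outside it. Of the core 63.2% were called, against 47.4% of all genes tested (24.0% higher and 23.4% lower). With the pan-neuronal scaling the core had 5 genes higher and 6 lower and a median of 0.12, against -0.46 for all genes. *Syn2*, a phosphoprotein that holds vesicles in the reserve pool, had the largest rise. It had 3.83 and 4.15 CPM in the WT libraries and 19.1 and 15.8 CPM in the KO libraries, which was 3.99 ± 0.229 against 17.5 ± 2.37 CPM (SD, n = 2 each) and a 4.39-fold difference (log2 fold change 2.13, SE 0.18, adjusted p = 2.79e-08 in edgeR's quasi-likelihood test). Both KO libraries were far above both WT libraries. *Cplx1*, a small protein that binds the assembled SNARE complex, had 19.2 and 16.3 CPM in WT and 41.5 and 44.6 CPM in KO, a 2.42-fold difference (log2 fold change 1.28, SE 0.12, adjusted p = 8.32e-08). *Sv2a*, a vesicle glycoprotein and the binding site of the antiepileptic levetiracetam, had 34.1 and 29.8 CPM in WT and 80.9 and 68.4 CPM in KO, a 2.34-fold difference (log2 fold change 1.23, SE 0.11, adjusted p = 7.21e-08). For both genes the groups were separate by more than the spread within either. On mouse genome build GRCm38 (mm10), *Syn2* lies on chromosome 6 from 115134902 to 115282006, *Cplx1* on chromosome 5 from 108518554 to 108550024 and *Sv2a* on chromosome 3 from 96181151 to 96195521. *Timp4* lies within *Syn2* on the other strand, and its exons cover 1.3% of the exon bases of *Syn2*.

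**Figure D2:**
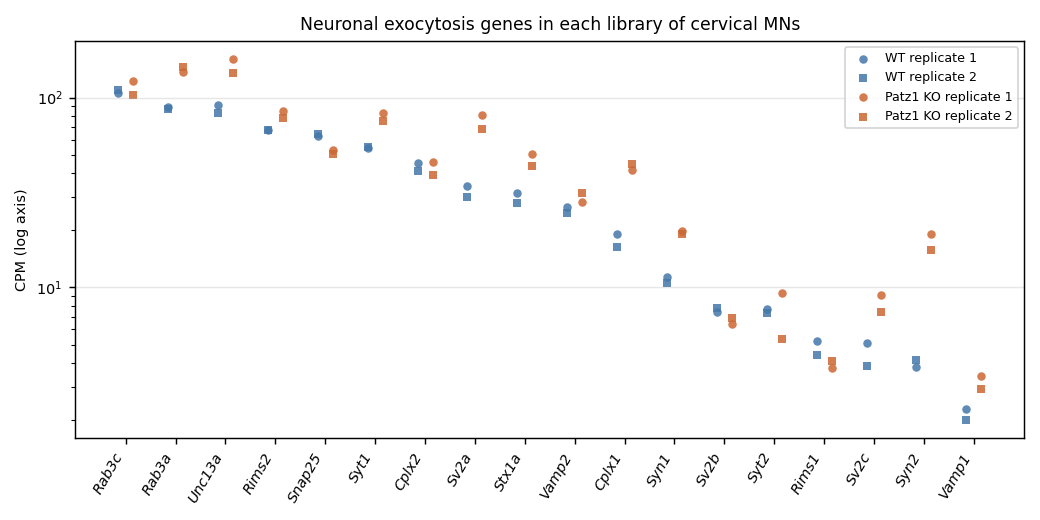
CPM with TMM scaling (log axis) of 18 of the 19 core exocytosis genes in each library, with circles for replicate 1 and squares for replicate 2, blue for WT and orange for *Patz1* KO. The libraries of the 2 groups stand farthest apart for *Syn2*, *Cplx1* and *Sv2a*, and the KO points of *Snap25* sit below its WT points.

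The stretches before the start of *Syn2*, *Cplx1*, *Sv2a* and *Vamp8* are shown because PATZ1 is known to bind G-rich DNA. Those of *Rims4* (log2 fold change 1.34) and *Syt16* (-1.05) are not shown. Each is from RefSeq (GRCm38.p6), 5′ to 3′ on the strand of the gene, and ends just before the first annotated transcript base. Capitals mark GGGAGGG, or CCCTCCC for the same motif on the other strand. The windows searched were the 250 bases before each RefSeq start, on both strands.
Syn2 (chr6:115134652-115134901, plus strand): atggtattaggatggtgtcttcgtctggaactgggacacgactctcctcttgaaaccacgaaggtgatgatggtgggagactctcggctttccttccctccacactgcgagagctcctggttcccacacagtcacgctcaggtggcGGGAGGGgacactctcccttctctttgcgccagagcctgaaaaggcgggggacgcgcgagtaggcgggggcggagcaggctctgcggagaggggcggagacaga
Cplx1 (chr5:108550028-108550277, minus strand): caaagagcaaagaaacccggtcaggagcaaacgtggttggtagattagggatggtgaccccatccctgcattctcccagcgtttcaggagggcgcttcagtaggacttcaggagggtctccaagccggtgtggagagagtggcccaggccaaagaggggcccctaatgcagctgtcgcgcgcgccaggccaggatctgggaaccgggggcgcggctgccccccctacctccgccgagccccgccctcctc
Sv2a (chr3:96180977-96181150, plus strand): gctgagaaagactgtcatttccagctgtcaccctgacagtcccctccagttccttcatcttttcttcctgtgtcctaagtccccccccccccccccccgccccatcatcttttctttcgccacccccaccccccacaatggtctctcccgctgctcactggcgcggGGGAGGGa
Vamp8 (chr6:72390704-72390917, minus strand): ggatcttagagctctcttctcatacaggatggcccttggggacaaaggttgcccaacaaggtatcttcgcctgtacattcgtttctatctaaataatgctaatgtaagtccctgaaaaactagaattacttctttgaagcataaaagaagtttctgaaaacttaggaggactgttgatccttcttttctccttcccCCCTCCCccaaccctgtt
*Syn2*, which rose, and *Vamp8*, which fell, each had 1 GGGAGGG in the window. *Sv2a* had 2 copies that overlap, of which the first is in the stretch printed, and *Cplx1* had none. GGGAGGG was found in 26 of 66 promoters of members (39.4%, from 50 genes with an entry), in 26.3% of the promoters of all genes tested and in 19.7% of all 32851 promoters. It was in 12 of 27 promoters of members that rose (44.4%), 2 of 4 of those that fell (50%) and 11 of 29 of those not called (37.9%). The related motif GGGCGGG was in 48.5% of the promoters of members and 41.8% of those of all genes tested. It was in 17 of 27 promoters of members that rose (63.0%), 0 of 4 of those that fell and 15 of 29 of those not called (51.7%). A match is a description of the sequence, and binding of PATZ1 at these sites was not analysed here.

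The synaptotagmins made up 17 of the members, including sensors of calcium and forms that do not bind it fully. Of the 8 with a full set of calcium-binding residues, 7 were tested and 3 rose with TMM scaling (0 higher and 2 lower with the pan-neuronal scaling), with a median log2 fold change of 0.42. That was 42.9% of those tested, close to the 47.4% of all genes that were called (24.0% higher and 23.4% lower). *Syt1*, a fast sensor of release, had 54.0 and 54.8 CPM in WT and 83.3 and 75.3 CPM in KO (log2 fold change 0.55, SE 0.094, adjusted p = 1.23e-04). Its paralogs *Syt6* and *Syt7*, the latter a slow sensor of high calcium affinity, rose by 0.61 and 0.42 on the log2 scale. *Syt2*, another fast sensor and the main one of the mature neuromuscular junction, had 7.65 and 7.36 CPM in WT and 9.32 and 5.36 CPM in KO, so the KO libraries lay on either side of WT (log2 fold change 0.00, SE 0.22). Among the 9 synaptotagmins that lack some of these residues, 8 were tested, *Syt11* (0.25) and *Syt13* (0.53) rose, and *Syt4* (-0.39) and *Syt16* (-1.05) fell. *Syt16* had 6.71 and 6.35 CPM in WT and 3.84 and 2.32 CPM in KO. Per kilobase of exon, *Syt11*, which acts in vesicle recycling and membrane traffic, made up 48.1% to 48.2% of the synaptotagmin level in WT and 49.6% to 51.9% in KO. *Syt4*, a regulator of dense-core vesicles, went from 22.6% to 23% in WT to 15.2% to 15.6% in KO. Exons of *Gm26658*, on the other strand, cover 14.5% of the exon bases of *Syt4*.

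The SNAREs of the target plasma membrane moved in both directions with TMM scaling (0 higher and 4 lower with the pan-neuronal scaling). Of 8 tested, 3 rose, among them *Stx1a* and *Stx2*, and *Snap23*, *Snap25* and *Stx3* fell, with a median log2 fold change of -0.05. *Stx1a*, the syntaxin of the synapse, had 31.6 and 27.9 CPM in WT and 50.6 and 43.6 CPM in KO (log2 fold change 0.67, SE 0.11, adjusted p = 7.10e-05). *Snap25*, the neuronal partner of syntaxin 1, had 62.8 and 64.1 CPM in WT and 53.1 and 50.7 CPM in KO (log2 fold change -0.29, SE 0.093, adjusted p = 0.0159). The groups did not overlap, but the call for *Snap25* was lost when either WT library was left out. *Snap23*, the paralog used by most other cells, had 49.2 and 47.6 CPM in WT and 24.8 and 27.4 CPM in KO (log2 fold change -0.89, SE 0.10, adjusted p = 1.37e-06). *Stx3*, a syntaxin of apical membranes and ribbon synapses, fell by 0.76 on the log2 scale. Within the plasma membrane syntaxins, *Stx1a* held 49.8% to 50% of the level per kilobase in WT and 55.6% to 58.2% in KO, and *Stx3* went from 10.8% to 12.1% to 3.95% to 6.0%.

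The vesicle SNAREs that pair with them were not called with TMM scaling (0 higher and 1 lower, *Vamp3*, with the pan-neuronal scaling). *Vamp2*, the synaptobrevin of most central synapses, had 26.5 and 24.7 CPM in WT and 28.3 and 31.6 CPM in KO (log2 fold change 0.23, SE 0.11, adjusted p = 0.108). *Vamp1*, its paralog in motor terminals, had 2.28 and 2.01 CPM against 3.42 and 2.92 CPM (log2 fold change 0.57, SE 0.28, adjusted p = 0.0986). *Vamp3*, the ubiquitous form, had 90.1 and 93.2 CPM against 83.8 and 82.1 CPM (log2 fold change -0.14, SE 0.088, adjusted p = 0.19). The groups were separate in each of the 3 genes, as they were in 10635 of all 14394 genes tested, and these differences did not pass the test. Per kilobase, *Vamp3* made up 66.7% to 68.0% of the *Vamp* level in WT and 66.0% to 68.7% in KO, and *Vamp2* went from 13.6% to 14.9% to 17.6% to 19.3%.

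*Vamp8* had the largest fall of the set. It encodes an endosomal SNARE that also drives granule release in secretory and blood cells, and lies on chromosome 6 from 72385223 to 72390703. It had 10 and 10.8 CPM in WT and 2.89 and 2.09 CPM in KO, which was 10.4 ± 0.531 against 2.49 ± 0.567 CPM (SD, n = 2 each; log2 fold change -2.03, SE 0.22, adjusted p = 5.57e-07). Its share of the *Vamp* level per kilobase went from 9.25% to 9.81% in WT to 2.09% to 2.96% in KO. Several lists of markers of other cells were lower in KO in their summed level. The 6 neural crest and mesenchyme markers summed to 129.9 to 146 CPM in WT and 17.5 to 20.3 CPM in KO. Most of the WT sum was from *Col3a1* (mean 94.8 CPM) and *Pdgfra* (mean 35.2 CPM). *Col3a1*, *Pdgfra*, *Twist1* and *Prrx1* were lower (log2 fold changes -3.24, -3.96, -2.63 and -2.61). In contrast, *Foxd3* was higher (2.51) and *Sox10* was not called (0.91). The 6 primitive endoderm markers summed to 31.6 to 35.6 CPM in WT and 5.20 to 6.32 CPM in KO, with 4 lower. The 8 neural progenitor markers summed to 1653 to 1741 CPM in WT and 1419 to 1458 CPM in KO, with 2 higher and 3 lower, and of 4 tested markers of pluripotent cells 1 was lower, with sums of 6.85 to 8.30 CPM and 5.32 to 6.44 CPM. No marker of these 4 lists was at 0 in every library, and the part of these cells in the falls of *Vamp8*, *Snap23* and *Stx3* was not tested.

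The *Vamp8* protein is 1 of 14 SNAREs of inner membranes in the set. Of 13 tested, 5 rose and *Vamp8* alone fell with TMM scaling (1 higher and 5 lower with the pan-neuronal scaling), with a median log2 fold change of 0.20. The share called was 46.2%, close to the 47.4% of all genes tested (24.0% higher and 23.4% lower). *Snap47*, a SNAP protein of inner membranes and some neuronal vesicles, had 107 and 102 CPM in WT and 159 and 141 CPM in KO (log2 fold change 0.52, SE 0.090, adjusted p = 1.28e-04), and exons of *Jmjd4* cover 11.6% of its exon bases. *Stx17*, a SNARE of autophagosomes, rose by 0.84 on the log2 scale. The endosomal syntaxins *Stx6*, *Stx7* and *Stx12* rose by 0.65, 0.56 and 0.24. *Snap47* made up 54.5% to 54.9% of the level per kilobase of the 4 SNAP genes in WT and 66.5% to 69.4% in KO, whereas *Snap23* went from 15.6% in both WT libraries to 6.70% to 7.99%.

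Among the complexins and Rab3 GTPases, some paralogs rose and others were not called with TMM scaling. With the pan-neuronal scaling the complexins had 1 higher (*Cplx1*) and 1 lower (*Cplx2*), and the *Rab3* genes had 0 higher and 1 lower (*Rab3c*). *Cplx2*, with 45.1 and 40.9 CPM in WT and 45.5 and 39.3 CPM in KO, had overlapping groups (log2 fold change -0.02, SE 0.10). *Cplx1* thus went from 47.1% to 48.6% of the complexin level per kilobase in WT to 67.1% to 71.8% in KO. *Rab3a*, the GTPase of synaptic vesicles, had 89.3 and 86.9 CPM in WT and 137 and 145 CPM in KO (log2 fold change 0.68, SE 0.087, adjusted p = 4.51e-06), and *Rab3d*, which marks secretory granules, rose by 0.64 on the log2 scale. *Rab3c* had 106 and 109 CPM against 122 and 103 CPM, and the KO libraries lay on either side of WT (log2 fold change 0.07, SE 0.094). The small exon overlap of *Rab3a* with *Mpv17l2* covers 1.3% of its exon bases.

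Of the active zone proteins, 7 were tested and 4 rose with TMM scaling (3 higher and 2 lower with the pan-neuronal scaling), with a median log2 fold change of 0.33. The share called was 57.1%, against 47.4% of all genes tested (24.0% higher and 23.4% lower). *Unc13a* (Munc13-1), the main priming factor of central synapses, had 91.6 and 82.7 CPM in WT and 160.1 and 134 CPM in KO (log2 fold change 0.76, SE 0.098, adjusted p = 5.70e-06). *Unc13b* (Munc13-2) had 112 and 109.7 CPM in WT and 111 and 92.3 CPM in KO (log2 fold change -0.12, SE 0.096). The *Unc13a* share of the Munc13 level per kilobase was 56.7% to 59.0% in WT and 71.3% to 71.4% in KO. *Rims2*, the most counted RIM scaffold, had 67.5 and 67.6 CPM in WT and 84.9 and 78.2 CPM in KO (log2 fold change 0.27, SE 0.091, adjusted p = 0.0198). *Rims1* had 5.24 and 4.40 CPM against 3.75 and 4.11 CPM and was not called (log2 fold change -0.30, SE 0.23). The short forms *Rims3* and *Rims4* had log2 fold changes of 0.95 and 1.34, the latter from only 10 to 15 counts in the WT libraries, and the calls of *Rims2* and *Rims4* were among those lost with DESeq2.

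Of the synapsins and SV2 proteins, 4 of 6 rose and none fell with TMM scaling, and the pan-neuronal scaling gave 2 higher and 1 lower (*Syn3*) among the synapsins and 1 higher and 1 lower (*Sv2b*) among the SV2 genes. In each family 66.7% were called with TMM scaling, against 47.4% of all genes tested (24.0% higher and 23.4% lower). *Syn1* rose with *Syn2*, from 11.4 and 10.5 CPM to 19.7 and 19.2 CPM (log2 fold change 0.83, SE 0.14, adjusted p = 6.92e-05). *Syn3*, a synapsin of early neurons, had 18.9 and 15.5 CPM in WT and 15.3 and 13.5 CPM in KO and was not called (log2 fold change -0.25, SE 0.14), and 14.1% of its exon bases are shared with *Timp3*, which lies inside it. *Syn2* went from 9.81% to 11.7% of the synapsin level per kilobase in WT to 24.5% to 27.4% in KO, and *Syn3* from 25.1% to 27.8% to 12% to 12.5%. *Sv2c* rose from 5.10 and 3.84 CPM to 9.12 and 7.39 CPM (log2 fold change 0.90, SE 0.21, adjusted p = 0.00192), a call lost with the pan-neuronal scaling (log2 fold change 0.44), while *Sv2b* had 7.45 and 7.80 CPM against 6.44 and 6.91 CPM and was not called (log2 fold change -0.20, SE 0.18). *Snap91* (AP180), the clathrin adaptor that retrieves vesicle membrane, rose from 85.9 and 85.5 CPM to 119 and 108 CPM (log2 fold change 0.41, SE 0.089, adjusted p = 0.00109). Of the called members in this account, *Rims2*, *Snap91* and *Syt11* had a log2 fold change below 0 with the pan-neuronal scaling, at -0.19, -0.05 and -0.21, and the same was so of *Stx12* and *Syt7*.

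**Figure D3:**
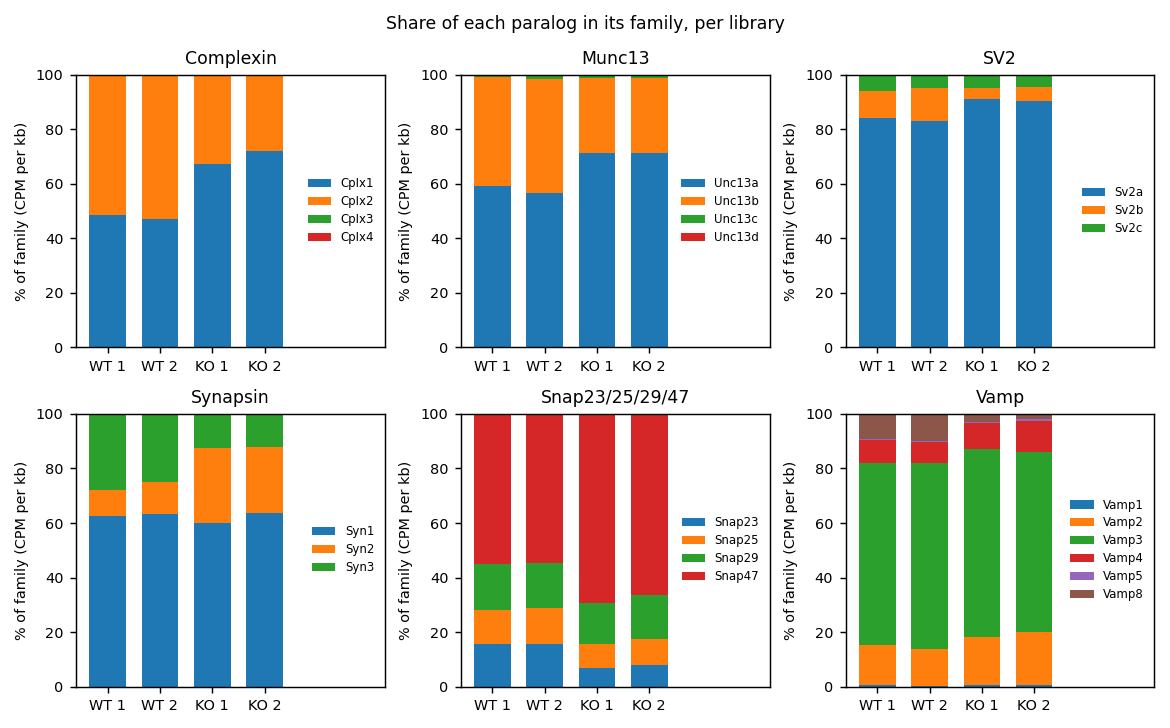
Share of each paralog in the summed CPM per kilobase of its family (y axis, percent) in each library, WT replicates on the left and *Patz1* KO replicates on the right of each panel. *Cplx1*, *Unc13a*, *Sv2a*, *Syn2* and *Snap47* took larger shares in both KO libraries, and *Cplx2*, *Unc13b*, *Syn3*, *Snap23* and *Vamp8* smaller ones.

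Per kilobase of exon, *Syt11* (43.3 CPM per kb) was the highest member in WT, followed by *Rab3a* (39.6) and *Snap47* (39.4), and these last 2 did not differ beyond their spread. In KO, *Rab3a* came first (63.5), before *Snap47* (56.5) and *Syt11* (51.4), which overlapped between libraries. *Cplx1* moved from place 17 to place 7, *Sv2a* from 19 to 9 and *Snap23* from 10 to 27. These levels use all annotated exon bases of a gene, so a gene with many rarely used exons is placed too low.

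The 7 members that were not tested had few or no counts. *Syt8* and *Vamp7* were listed at 0 in all libraries, which for *Syt8* allows up to 3 counts in each. *Vamp7* was not matched to an exon length. The annotation used in counting is not given, so the 0 of *Vamp7* cannot be read as a level. *Cplx3*, *Cplx4*, *Stx19*, *Syt10* and *Unc13d* had between 0 and 14 counts in each library. Among the 28 tested members that were not called, the smallest p of those outside the core was that of *Syt3*, with a log2 fold change of 0.58 (SE 0.25, adjusted p = 0.0631).

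Genes that work with the fusion machinery were counted from a second list of 45 partners, of which 44 were among the symbols counted and were tested. Of the 44, 20 rose and 6 fell, so 59.1% were called, against 47.4% of all genes tested (24.0% higher and 23.4% lower). Their median log2 fold change was 0.24. With the pan-neuronal scaling 6 were higher and 19 lower, beside 1144 higher and 8642 lower of all 14394 genes. *Syp* (synaptophysin) and *Syngr1* (synaptogyrin 1), both membrane proteins of the vesicle, rose from 67.9 and 64.9 CPM to 124 and 115 CPM and from 6.78 and 5.79 CPM to 18.4 and 18.8 CPM (log2 fold changes 0.85 and 1.57). *Stxbp6* (amisyn), which binds syntaxin in place of VAMP, had 27.7 and 29.8 CPM in WT and 5.16 and 5.13 CPM in KO (log2 fold change -2.48, SE 0.14, adjusted p = 2.14e-10), a larger fall than that of *Vamp8*. Of 11 genes of dense-core vesicles, which use much of the same machinery to release peptides, 7 rose and 1 fell (72.7% called). Their median was 0.44, and with the pan-neuronal scaling 3 were higher and 4 lower. *Vgf*, a peptide precursor, rose from 4.43 and 4.40 CPM to 27.0 and 24.2 CPM (log2 fold change 2.54), and *Chga* and *Cpe* had log2 fold changes of 0.88 and 0.78. The prohormone convertase *Pcsk2* fell by 0.75 on the log2 scale.

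**Figure D4:**
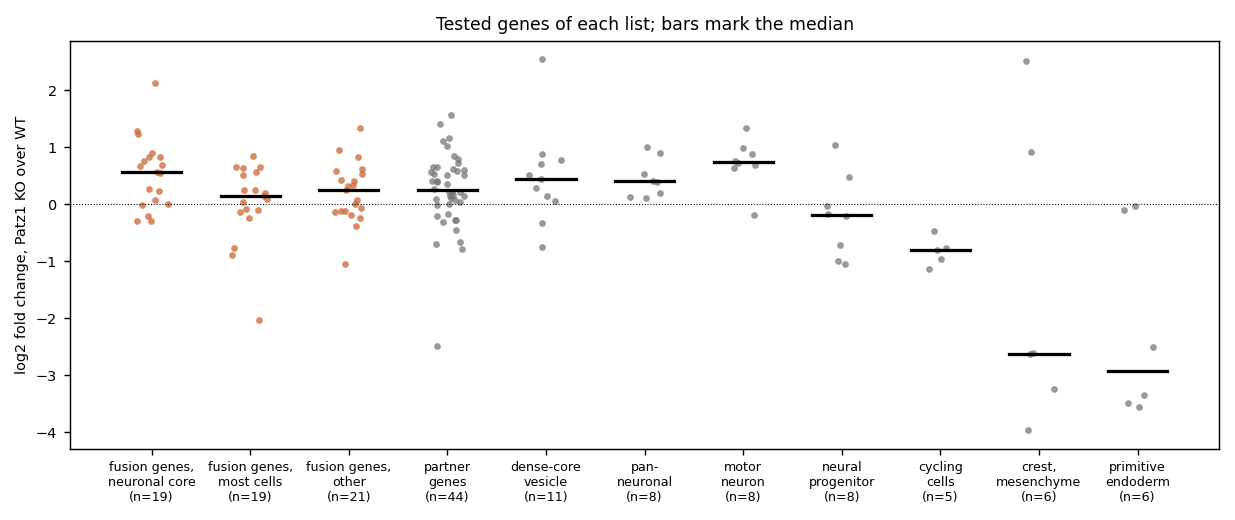
Log2 fold change with TMM scaling (*Patz1* KO over WT, y axis) of each tested gene, with fusion genes in orange split into the neuronal core (19), genes of membrane traffic in most cells (19) and the others (21), and the comparison lists in grey. Horizontal bars mark the medians, at 0.57 for the core, 0.15 for the traffic genes, 0.24 for the partners, 0.40 for the pan-neuronal and 0.74 for the MN markers.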

How the data were processed

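RNA-seq was from 4 libraries of total RNA depleted of ribosomal RNA and prepared with a stranded kit. The authors mapped reads to mm10 and deposited raw counts per gene symbol. The submitters' processing notes list TopHat2 2.1.1, Bowtie2 2.3.1, featureCounts 1.6.2 and DESeq2, and the annotation and strand setting of the counting are not given in the sources used here. Genes with at least 10 counts in at least 2 libraries were normalized with TMM and tested in 1 fit (edgeR 4.0.16, limma 3.58.1, R 4.3.3, quasi-likelihood test, 2-sided, Benjamini-Hochberg over 14394 genes). SE was the absolute log2 fold change over the square root of F. The script was tested on simulated data.

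The members and lists were chosen with earlier results of these data known. 1 member is counted in the totals but not reported here by itself. Named with values are the other core members, called members with an absolute log2 fold change of at least 1, and in each role the member with the smallest p and the most counted one. The other called members, *Syt3*, *Syn3*, *Unc13b*, *Pcsk2* and the single neural crest and mesenchyme markers were named after their values were seen. Replicates differed beyond sampling noise (chi-square per gene 10.3 in WT and 22.9 in *Patz1* KO, common biological coefficient of variation 7.71%). Depth limits precision most for genes with few counts. The SE comes from the quasi-likelihood fit and so includes variation between replicates, whereas the limit given for a count of 0 covers counting error only. An exact permutation test of 2 libraries against 2 cannot go below 0.333, so none was run. Lengths, positions and overlaps were from GENCODE M21 (GRCm38), with a length for 65 of 66 members. Alternatives were other scalings, filters, DESeq2 1.42.0 (alpha 0.05), robust estimation, thinning, a test against an absolute log2 fold change of 1, the replicate block and leaving out each library. Python 3.11.15 with pandas 2.3.3, numpy 2.4.6 and matplotlib 3.10.9 made tables and plots.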

Additional observations from a re-analysis of the deposited data

How the results depend on the processing

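DESeq2's size factors, TMM without the 20 most counted genes, robust estimation, the 3 filters and thinning called 31 or 32 members, library size alone called 28 (*Rims2*, *Stx12* and *Syt11* lost) and DESeq2's Wald test 27 (*Rims4* lost as well). The replicate differences of the 2 groups had a correlation of 0.005 over genes. With 2 libraries per group this cannot show whether libraries of the same number shared a culture. With the replicate number as a block 31 members were called, the same as in the main test, and 7321 of all genes, against 6822. Leaving out 1 library, with the lone library assumed to vary like the other group, gave 24 to 34 members, 19 to 28 higher and 5 to 8 lower, 22 to 27 partners, 7 to 8 dense-core genes and 4570 to 7782 of all genes, with 2203 to 3808 lower. Without WT replicate 2, *Rims2*, *Rims3*, *Rims4*, *Snap25*, *Stx12*, *Syt7* and *Syt11* lost their calls, without WT replicate 1 *Rims2*, *Snap25*, *Stx12*, *Syt11* and *Syt13* did, without KO replicate 1 *Rims4* and *Syt11* did, and without KO replicate 2 none did. A test against an absolute log2 fold change of 1 left 2 members (1 higher, *Syn2*, and 1 lower, *Vamp8*), 2 partners (1 higher, 1 lower), 1 dense-core gene (1 higher, 0 lower) and 711 of all genes (274 higher, 437 lower). Scaling to the pan-neuronal markers, added after seeing the data, gave 8 members higher and 21 lower, 6 partners higher and 19 lower, 3 dense-core genes higher and 4 lower, and 1144 of all genes higher and 8642 lower. It turned the log2 fold change of *Rab3c* to -0.39, *Rims2* to -0.19, *Snap91* to -0.05, *Syt11* to -0.21 and *Vamp2* to -0.23. Values near 0 that changed sign elsewhere were *Cplx2* (0.01 without a filter, -0.13 to 0.09 when 1 library was left out), *Rab3c* (-0.06 to 0.19) and *Syt2* (0.00 with TMM without the most counted genes, 0.02 without a filter, -0.48 to 0.32 when 1 library was left out). With the alternatives other than the pan-neuronal scaling, no member called in the main test changed sign, and the cause of the differences was not tested.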
